A study of Oryza sativa with 2 samples.

Results

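Potassium channels and HAK transporters were examined in rice seedlings, as the 9 gene models given by a fixed list of loci among the 55986 models of the deposited count table. Of the 9 models, 6 belong to the HAK family and 3 to the Shaker-type channels. The salinity library came from seedlings of the cultivar CARI Dhan 7 raised for 14 days from germination in a mixture of 4 salts (sodium and calcium chloride, sodium and magnesium sulfate) with an electrical conductivity of 6 dS/m. The control library came from seedlings of the same cultivar and age raised in distilled water, taken as 0 dS/m. Each group had 1 library of poly(A) RNA, so differences below lack a replicate check, and no p-value is printed. The labels name no plant part beyond the seedling, and how many seedlings were pooled is not stated in these sources.

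Potassium is the main inorganic cation of the plant cell, and it enters roots through channels and carriers that work side by side. Shaker-type channels are voltage-gated pores that pass potassium inward (AKT1, KAT1) or outward (SKOR). HAK carriers, the plant members of the KT/HAK/KUP family, include the proton-coupled uptake systems used when external potassium is scarce. Sodium competes with potassium for uptake and inside the cell, and retention of potassium is a well-known trait of plants that withstand salt.

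The outward channel gene SKOR was 22.9-fold higher in the salinity library, the highest ratio of the 8 models that could be measured. The carrier genes HAK27 and HAK10 were also higher, by 5.37-fold and 2.96-fold. HAK5, a high-affinity carrier gene, was 7.01-fold lower. The inward channel gene AKT1 and the carrier genes HAK1, HAK7 and HAK16 did not pass the size rule, by which the counting interval of a ratio must lie wholly beyond 2-fold, and KAT1 had no counts in either library.

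Except for SKOR, the gene models held exon pairs that recur in other listed potassium transport genes, a feature that played no part in choosing them. In all 6 HAK models an exon of 261 bases was followed by one of 53 bases. Across the 55986 models of the table, 23 held this pair of neighbouring exons, of which 6 were these genes and 17 were other listed potassium transport genes. The pair is not in every HAK model, since HAK3, HAK4, HAK18 and HAK22 did not hold it. HAK1, HAK5, HAK7 and HAK10 had 9 exons each, whereas HAK16 and HAK27 had 10. Between HAK16 and HAK27, 5 of 8 internal exons had the same length at the same place. AKT1 and KAT1 shared a different layout, an exon of 58 bases before one of 318 bases, found in 9 models, and an exon of 99 bases before one of 33 bases, found in 5. SKOR, with 11 exons like AKT1, held none of these 3 pairs. HAK10 stood apart by a last exon of 3814 bases, against at most 1455 bases for any exon of the other 8 models.

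**Figure D1:**
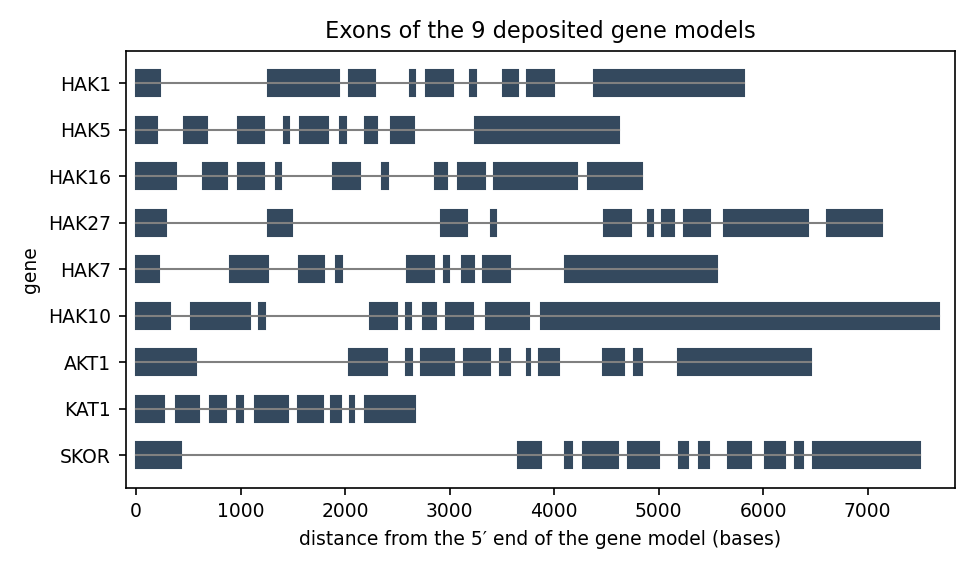
Exons (blocks) and introns (lines) of the 9 deposited gene models, by distance in bases from the 5′ end of each model. HAK16 and HAK27 have 10 exons each, the other HAK models have 9, and the last exon of HAK10 spans 3814 bases.

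One name differed from the list. LOC_Os03g37830 was listed as HAK21, but the RefSeq name table (assembly ASM3414082v1) places HAK27 next to HAK16 on chromosome 3, with no gene between them. HAK27 spans 7148 bases in that table, against 7142 bases for LOC_Os03g37830, and HAK16 spans 4833 bases, against 4838 bases for LOC_Os03g37840. The model is therefore called HAK27 here. The name HAK21 is not in that table and is given to no locus here, and LOC_Os03g37930, a listed locus close by, is printed without a name. AKT1, HAK1, HAK5 and HAK7 were found in the same way. HAK10 is on the same chromosome in the name table, but it spans 4870 bases there and 7685 bases in the deposited table. SKOR and KAT1 are not among its names, so these 3 names rest on the list.

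The libraries differed in depth. The salinity library held 15031328 counts and the control library 45359020. Every salinity value above 0 was even and 70.6% were multiples of 4, against 61.7% even among control values above 0. For that reason intervals and calls are on an inferred read-pair scale, where 1 pair stands for 4 salinity counts or for 2 control counts. The scale is approximate, since SKOR, AKT1 and HAK27 had salinity counts that are not multiples of 4. Levels are counts per 1e6 scaled counts (CPM). A call of higher or lower required that all of the 95% counting interval of a ratio lay beyond 2-fold, which compares these libraries and covers counting error only. The rule was applied to the 26638 models whose counts summed to 10 or more, called measured below, and 2124 (7.97%) were higher and 1376 (5.17%) lower. Of these calls 39.3% were lower with TMM scaling and 56.5% with library totals, which shifted the median log2 ratio of all models by -0.25. That median was -0.08 with TMM.

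Markers of seedling parts moved unevenly between the libraries. Among 5 root markers there were 1 higher and 2 lower calls, and the summed level was 757 CPM in the salinity and 1132 CPM in the control library. The lower ones were NAS1 and NAS2, nicotianamine synthase genes, at log2 ratios of -3.19 and -2.07, and the higher one was NRT2.1, a nitrate transporter gene, at 1.99. The silicon transporter genes Lsi1 and Lsi2 were at 0.48 and -0.64, and no root marker was at 0 in either library. Of 4 green shoot markers, 1 was higher and 0 were lower, with a summed level of 30985 CPM in the salinity and 22635 CPM in the control library. Of 3 grain markers, only AMY1A was called, as lower, with 0 salinity and 68861 control counts. GLUA1 had 0 salinity and 19 control counts, too few to show a change. GLUA2 had 28 salinity and 148 control counts and a log2 ratio of -0.53 (interval -1.92 to 0.56), which was not called. The grain sum was 2.03 CPM in the salinity and 1394 CPM in the control library, where AMY1A alone was at 1390 CPM. The part of these shifts in the results below was not tested. Whether the grain was part of both samples is not stated in these sources. In RNA of seedlings, fewer cells of a type and less RNA per cell cannot be told apart.

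Of the 9 models, 8 passed the minimum of 10 counts, and 3 of these 8 (37.5%) were higher and 1 (12.5%) lower, against 7.97% and 5.17% of all measured models. With counts as deposited the members called were again 3 higher and 1 lower, against 10.6% higher and 10.3% lower of all measured models. The rule calls well-counted models more readily than thinly counted ones, here and in the comparisons below. By a point estimate beyond 2-fold, 3 of the 8 members were higher and 1 lower, against 4322 higher and 5556 lower of the 26638 measured models. By that rule the members' share of higher calls was above that of all measured models, and their share of lower calls was below it. The median log2 ratio of the 8 was 0.80, against -0.08 over all measured models. The summed level of the 9 models was 1039 CPM in the salinity and 513 CPM in the control library.

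High-affinity carriers take up potassium from dilute solution, and the best known of them, HAK1 and HAK5, differed in their ratios. HAK1 (LOC_Os04g32920, chromosome 4, 19886674 to 19892492), a root uptake carrier of rice that is needed at low potassium, had 2360 salinity and 6989 control counts. These are 171 CPM in the salinity and 141 CPM in the control library, a log2 ratio of 0.28 (interval 0.15 to 0.41). HAK1 was thus close to level between the libraries, and with library totals its ratio was 0.03. HAK5 (LOC_Os01g70490, chromosome 1, 40825681 to 40830301), a rice carrier of high-affinity uptake and of potassium transfer to the shoot, had 16 salinity and 416 control counts. Its level was 1.16 CPM in the salinity and 8.40 CPM in the control library, and its log2 ratio was -2.81 (interval -4.74 to -1.48). The 16 salinity counts are 4 read pairs, just above the floor of 3 pairs (0.872 CPM), which leaves a wide interval. The difference in log2 ratio between HAK1 and HAK5 was 3.09 (interval 1.75 to 5.03), a value that library scaling cannot move.

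HAK16 and HAK27 lie side by side on the same strand of chromosome 3, 17032 bases apart, and differed in their ratios. HAK27 (20978618 to 20985759), a family member whose role is not stated here, had 454 salinity and 304 control counts. Its level was 32.98 CPM in the salinity and 6.14 CPM in the control library, a log2 ratio of 2.43 (interval 2.06 to 2.79). HAK16 (21002792 to 21007629), which in rice contributes to potassium uptake and its transfer to the shoot, had 80 salinity and 370 control counts. Its level was 5.81 CPM in the salinity and 7.47 CPM in the control library, a log2 ratio of -0.36 (interval -1.11 to 0.31). HAK27 was the only model of the pair beyond the size rule, and the interval of HAK16 includes no change and a 2-fold lower level. Per kilobase of exon, HAK27 was 5.83 times the level of HAK16 in the salinity library and 0.844 times in the control library. The difference in log2 ratio was 2.78 (interval 2.02 to 3.62). Of the 38 models from 100000 bases before HAK27 to 100000 bases after HAK16, 13 were measured, 1 was higher (HAK27) and 1 was lower. The lower one, LOC_Os03g37810, is the nearest measured model on the other side of HAK27 and had 4 salinity and 333 control counts. The next measured model beyond HAK16 is LOC_Os03g37930, another listed locus, with 10 exons and the same 261- and 53-base pair. It had 24 salinity and 324 control counts and a log2 ratio of -1.88 (interval -3.37 to -0.75), which was not called. Counting could have divided or dropped reads that match more than 1 of these similar neighbours, so the ratios of the 3 loci are uncertain to that extent.

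HAK7 and HAK10 were the remaining carriers. HAK7 (LOC_Os07g47350, chromosome 7, 28312108 to 28317670) had 5584 salinity and 12673 control counts. At 406 CPM in the salinity and 256 CPM in the control library, it had a log2 ratio of 0.67 (interval 0.58 to 0.75). Its role is not stated here, but per kilobase it was the most abundant of the 9 models in both libraries. HAK10 (LOC_Os06g42030, chromosome 6, 25235281 to 25242965), a carrier placed at the vacuolar membrane in rice, had 1372 salinity and 1666 control counts. Its level was 99.7 CPM in the salinity and 33.6 CPM in the control library, a log2 ratio of 1.57 (interval 1.38 to 1.75). HAK10 shares 611 exon bases with LOC_Os06g42020 on the opposite strand, which had 26 salinity and 425 control counts and a log2 ratio of -2.16 (interval -3.58 to -1.08). Both overlapping models were thus called, in opposite directions. The use of strand in counting is not stated in these sources, so reads in the shared stretch cannot be assigned.

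AKT1 (LOC_Os01g45990, chromosome 1, 26119708 to 26126165), the inward channel of rice roots, had 1322 salinity and 2484 control counts. Its level was 96.0 CPM in the salinity and 50.15 CPM in the control library, a log2 ratio of 0.94 (interval 0.76 to 1.11). This interval lies above no change and across the 2-fold bound, so AKT1 was not called by the 2-fold rule, and it was called higher by a 1.5-fold rule. CBL1 and CIPK23, a calcium sensor and a protein kinase that activate AKT1 in rice, were both within the rule. CBL1 was at 20.1 CPM in the salinity and 18.9 CPM in the control library, a log2 ratio of 0.09 (interval -0.30 to 0.46). CIPK23 was at 65.4 CPM in the salinity and 85.4 CPM in the control library, a log2 ratio of -0.39 (interval -0.59 to -0.19).

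SKOR (LOC_Os06g14030, chromosome 6, 7799073 to 7806571) is named after an Arabidopsis channel that releases potassium into the xylem of the root. It had 3114 counts in the salinity and 488 in the control library, the only member with more counts in the salinity library besides HAK27, although that library had fewer counts in all. These are 226 CPM in the salinity and 9.85 CPM in the control library, a log2 ratio of 4.52 (interval 4.31 to 4.73). Of the 26638 measured models, 303 had a higher ratio. The nearest measured models on either side of SKOR, LOC_Os06g13950 and LOC_Os06g14040, were at -1.28 and -1.24, and neither was called. KAT1 (LOC_Os01g55200, chromosome 1, 31761223 to 31763887), named after an inward channel of Arabidopsis guard cells, had 0 counts in both libraries. That allows up to 0.872 CPM in the salinity and 0.121 CPM in the control library, so its level was not detectable at this depth.

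**Figure D2:**
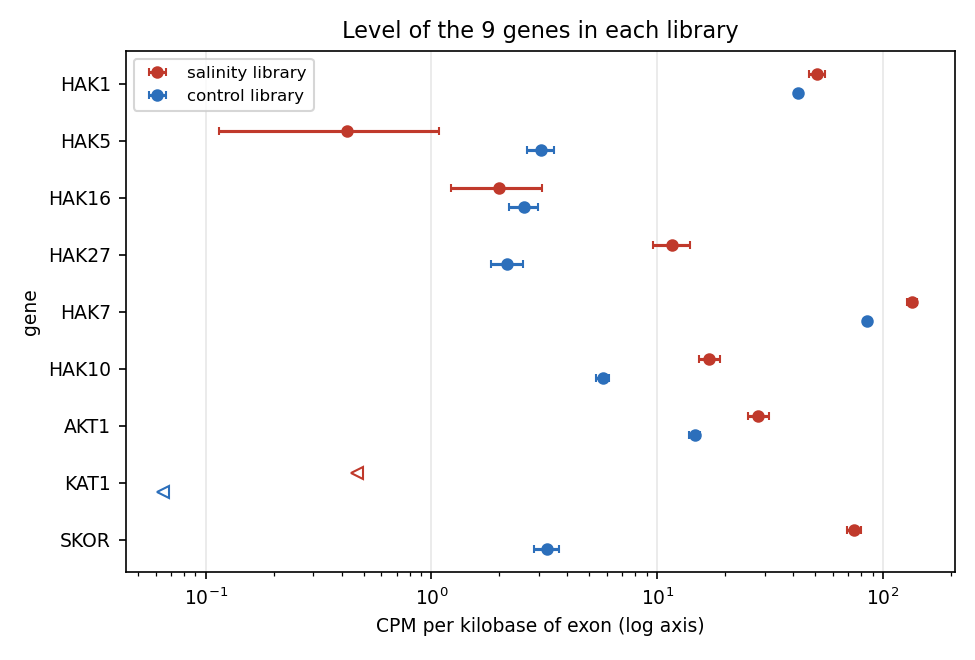
Level of each gene in CPM per kilobase of exon (log axis) in the salinity library (red) and the control library (blue), 1 library each, with exact Poisson 95% intervals on the read-pair scale; open triangles give the floor of 3 read pairs as the upper limit of KAT1, which had no counts. SKOR is at 74.4 in the salinity and 3.24 in the control library, and HAK5 at 0.422 in the salinity and 3.05 in the control library.

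Per kilobase of exon, the order of the 9 models changed between the libraries through SKOR, and through HAK27 and HAK5, which changed places. In the salinity library HAK7 was highest at 134 CPM per kilobase, followed by SKOR at 74.4, HAK1 at 51.2, AKT1 at 28.1, HAK10 at 17.0, HAK27 at 11.6, HAK16 at 1.998 and HAK5 at 0.422. No neighbours in that order had overlapping Poisson intervals, except that the interval of HAK5 reached below the floor set for KAT1. In the control library HAK7 was highest at 84.7 CPM per kilobase, followed by HAK1 at 42.2, AKT1 at 14.7 and HAK10 at 5.74. SKOR, HAK5, HAK16 and HAK27 followed at 3.24, 3.05, 2.57 and 2.17, and each overlapped its neighbour among these 4, while SKOR and HAK5 lay wholly above HAK27. In the salinity library the same 4 genes stood between 0.422 and 74.4 CPM per kilobase. SKOR was at 2.65 times the level of AKT1 in the salinity library and at 0.221 times in the control library. The level of HAK10 is sensitive to the length of its model, since its long last exon enters the division. Among all measured models, SKOR stood at the percentile 94.6 of level per kilobase in the salinity library and 37.8 in the control library, and HAK5 at 13.1 in the salinity library and 36.7 in the control library.

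Among the 6 member HAK genes, HAK7 and HAK1 made up most of the summed level in both libraries. Of the summed level per kilobase of the 6 HAK genes, HAK7 held 62.0% in the salinity and 60.4% in the control library. HAK1 held 23.6% in the salinity and 30.0% in the control library, and HAK27 5.38% in the salinity and 1.54% in the control library. HAK5 held 0.195% in the salinity and 2.17% in the control library.

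**Figure D3:**
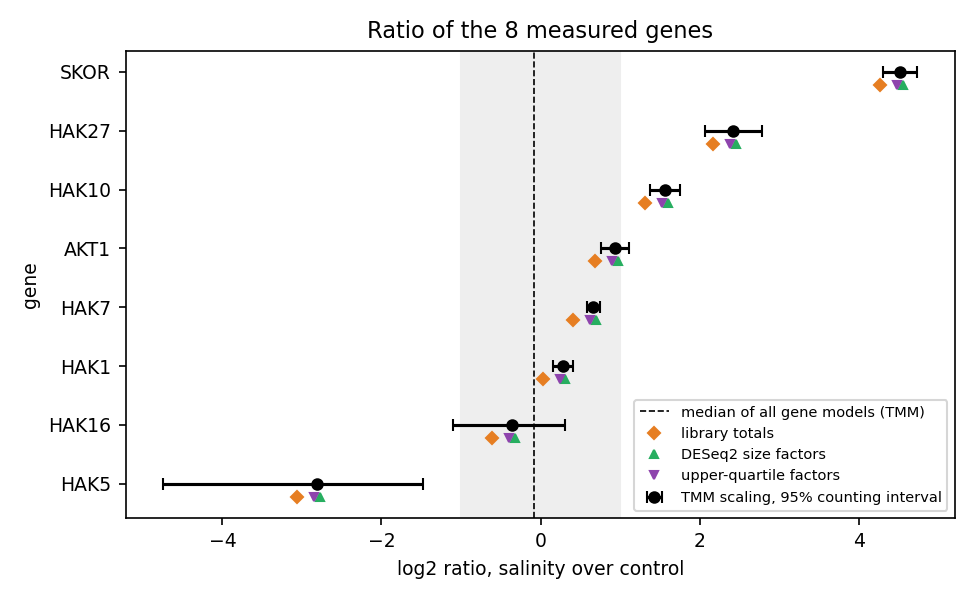
Log2 ratio of salinity over control for the 8 measured genes, with TMM scaling and 95% counting intervals (black) and with 3 other scalings (coloured); the grey band marks 2-fold and the dashed line the median of all measured models, -0.08. SKOR, HAK27 and HAK10 lie above the band and HAK5 below it under each scaling shown.

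The members also differed from each other, a comparison that does not depend on library scaling. Among the 28 pairs of the 8 measured models, the counting interval of the difference in log2 ratio lay away from 0 in 27. The exception was HAK1 and HAK16, with a difference of 0.64 (interval -0.04 to 1.40). The widest difference was that of SKOR and HAK5, at 7.33 (interval 5.97 to 9.27), although both were near 3 CPM per kilobase in the control library. These intervals cover counting error in 2 libraries and say nothing of the spread between seedlings.

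Among the other listed genes of potassium transport, TPKb and 6 named HAK genes were higher. Of 31 listed loci, 26 were measured, 8 (30.8%) were higher and 0 were lower, against 7.97% and 5.17% of all measured models, and their median log2 ratio was 0.78, against -0.08. With counts as deposited 10 were higher and 1, LOC_Os03g37930, was lower, against 10.6% and 10.3% of all measured models. TPKb, a two-pore potassium channel of vacuoles in rice, was the highest of them. It had 944 salinity and 348 control counts, which are 68.6 CPM in the salinity and 7.03 CPM in the control library. Its log2 ratio was 3.29 (interval 2.998 to 3.58). The HAK genes called higher were HAK24 at 2.32, HAK18 at 1.91, HAK19 at 1.77, HAK11 at 1.49, HAK14 at 1.42 and HAK12 at 1.37. With library totals HAK19, HAK14 and HAK12 were no longer called. The eighth was LOC_Os03g21890, at 1.77, whose name was not found in the name table. HAK18 was at 199 CPM in the salinity and 53.2 CPM in the control library, and HAK24 at 47.1 CPM in the salinity and 9.41 CPM in the control library.

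The listed genes that were not called fell into well-counted and thinly counted ones. HAK25, HAK23, HAK17, HAK13, HAK22, HAK15 and HAK2 had log2 ratios of 0.88, 0.47, 0.27, -0.05, -0.09, -0.09 and -0.14. HAK2 shares 940 exon bases and HAK3 559 with other gene models, so reads in those stretches cannot be assigned, as for HAK10. TPKc was at 1.56 (interval 0.80 to 2.27). The unnamed loci LOC_Os04g36740, LOC_Os02g14840, LOC_Os03g54100, LOC_Os07g48130 and LOC_Os05g35410 were at 0.58, 0.50, 0.45, -0.06 and -0.44. Of these, LOC_Os02g14840 was thinly counted, with 42 salinity and 108 control counts and an interval of -0.63 to 1.45. HAK3, HAK4, HAK26 and LOC_Os01g11250, with at most 62 control and 40 salinity counts, had intervals at least 2.26 wide on the log2 scale. The remaining 5 of the 31 loci, HAK6 and HAK20 among them, had fewer than 10 counts in all.

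**Figure D4:**
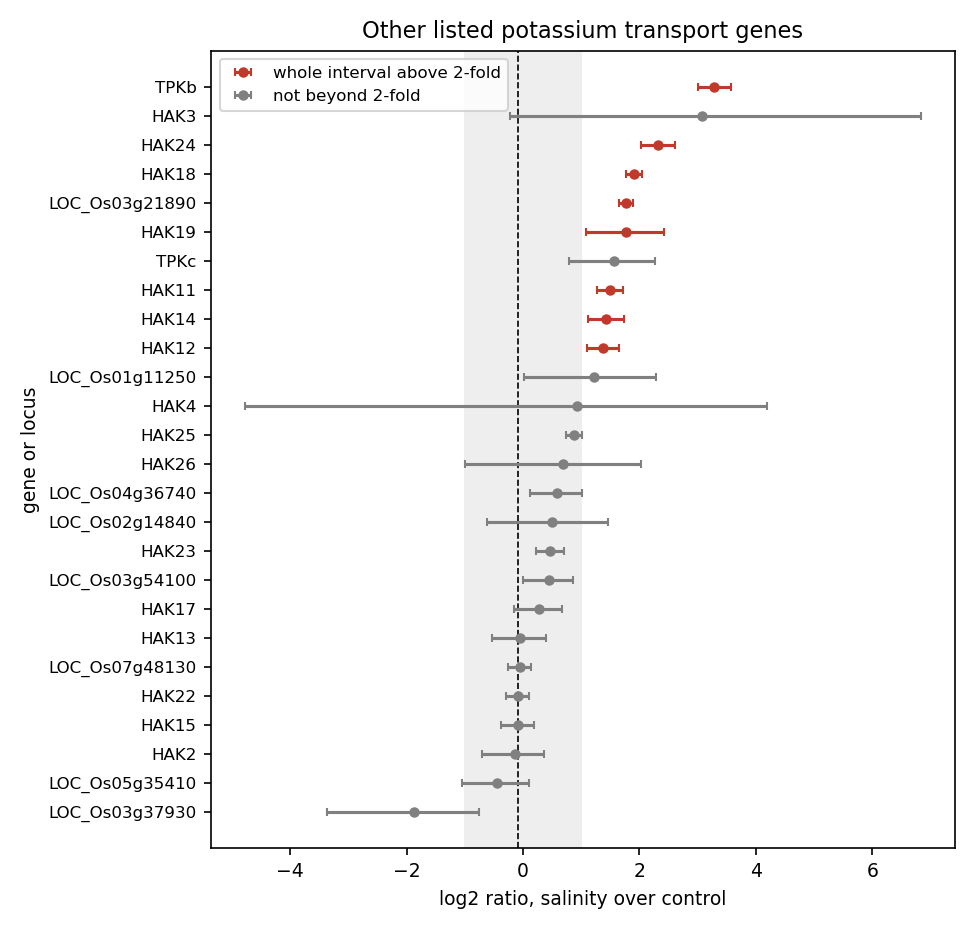
Log2 ratio of salinity over control for the 26 other listed potassium transport genes that were measured, with 95% counting intervals; red marks the 8 genes whose whole interval lies above 2-fold, the grey band marks 2-fold and the dashed line the median of all measured models, -0.08. TPKb is at 3.29, and none of the 26 has its whole interval below the band.

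Over the 23 HAK genes with a name found in the table, HAK7 was the most abundant per kilobase in both libraries, with 31.3% of the summed level in the salinity and 33.4% in the control library. HAK18 held 13.2% in the salinity and 5.95% in the control library, and HAK1 12.0% in the salinity and 16.6% in the control library. The 23 genes summed to 429 CPM per kilobase in the salinity and 254 CPM per kilobase in the control library. HAK10 is not in that sum, since its span differed between the tables. LOC_Os03g21890, LOC_Os07g48130 and LOC_Os03g37930, which hold the 261- and 53-base exon pair, are left out too, since no name was found for them. LOC_Os03g21890 was at 89.6 CPM per kilobase in the salinity and 26.3 CPM per kilobase in the control library. The shares are thus of the named genes only. Of the 21 of these genes that were measured, 7 (33.3%) were higher and 1 (4.76%), HAK5, was lower, against 7.97% and 5.17% of all measured models. The share of lower calls was thus near that of the whole table.

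Chromosomal neighbours were called in both directions. Of the 18 nearest measured models on either side of the 9 loci, HAK16 and HAK27 counting as neighbours of each other, 2 (11.1%) were higher, 3 (16.7%) were lower and 13 (72.2%) were not called, against 7.97%, 5.17% and 86.9% of all measured models. The higher ones were HAK27 and LOC_Os01g70500, which lies 3242 bases from HAK5 and had a log2 ratio of 2.13 (interval 1.49 to 2.76), opposite in direction to HAK5. The lower ones were LOC_Os03g37810 beside HAK27, LOC_Os06g42020 overlapping HAK10, and LOC_Os01g55220, 2742 bases from KAT1, at -3.08 (interval -4.27 to -2.14).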

How the data were processed

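RNA of 1 salinity and 1 control sample of rice seedlings was enriched for poly(A) transcripts and sequenced, per the labels' protocols. The authors deposited whole-number counts per gene model; per the submitters' processing notes they used FastQC, MultiQC, STAR, featureCounts and DESeq2. These sources name no versions, genome build, annotation or counting options, and coordinates and exon lengths are those of the deposited table. Exons of a model that overlap were merged.

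Models with a sum of at least 10 counts entered the TMM factors (R 4.3.3, edgeR 4.0.16). Log2 ratios carry a prior count of 0.5 per library. Intervals are exact conditional binomial (Clopper-Pearson) at 95%, on the inferred read-pair scale, which is approximate, since 11654 control values are odd and only 70.6% of salinity values above 0 are multiples of 4. The floor for 0 counts is 3 pairs. PCR copies are not separate molecules, and intervals and floors cover only the error of counting. Differences between members use the conditional odds ratio. Only the ratios, intervals and calls were tested on simulated data. The simulation used the same read-pair scale, so it cannot show an error in that scale. The steps after the TMM factors were run with scipy 1.17.1, pandas 2.3.3 and numpy 2.4.6 under Python 3.11.15, with figures by matplotlib 3.10.9. DESeq2 1.42.0 gave alternative size factors.

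Names were looked up in the RefSeq table and kept where chromosome, order along it and span (tolerance 25%) fitted, and 20 of 31 other listed names were found. Members and lists were chosen with earlier results of these data known, and lists come from general knowledge of rice loci. Named genes are all members, listed genes called or with at least 100 counts, AKT1 partners, neighbours and markers; thinly counted and low loci, and the neighbours of SKOR, HAK5, HAK10 and KAT1, were added after their values were seen. The alternatives changed scaling, filter, counting unit, depth, size rule and prior count.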

Additional observations from a re-analysis of the deposited data

How the results depend on the processing

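Over 8 alternatives that give a ratio, all 64 recomputed ratios of the 8 measured members kept their sign and their side of the size rule. Part of this was fixed in advance, since the counting unit does not enter the ratio and the prior count does not enter the interval. SKOR ran from 4.27 to 4.57, HAK27 from 2.17 to 2.47, HAK10 from 1.31 to 1.61 and HAK5 from -3.06 to -2.69. With library totals the members' median was 0.55, and of the 26638 measured models 1639 were higher and 2127 lower. Of the 26 other potassium transport genes measured, 5 were then higher and 1 lower. With counts as deposited 2831 of all models were higher and 2755 lower, and 10 other potassium transport genes were higher and 1 lower. A rule of 1.5-fold gave 3408 higher and 2803 lower models. By that rule 4 members were higher and 1 lower, and 10 other potassium transport genes were higher and 1 lower. A rule of 4-fold gave 792 higher and 398 lower models, left 0 members lower, since HAK5 was lost, and 2 other potassium transport genes higher; HAK10 was lost too. A point estimate beyond 2-fold gave 4322 higher and 5556 lower models, with 11 other potassium transport genes higher and 1 lower. These shifts follow by construction from the size rule, the counting unit or the scaling. The 1 gene lower in these settings was LOC_Os03g37930. HAK14 and HAK12 were also not called with the control library thinned. No paired analysis was possible because each group had 1 library. With 20 or fewer salinity pairs, HAK5 and HAK16 are the members whose size is limited most by depth.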
